A study of Saccharomyces cerevisiae with 9 samples.

Results

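The transcripts described here are those of 9 cyclins of the yeast cell cycle kinase Cdc28 and of SIC1, the inhibitor of its B-type cyclin forms. They comprise the G1 cyclins CLN1, CLN2 and CLN3, the B-type cyclins CLB1 to CLB6, and SIC1, taken by gene symbol from the value tables of both array platforms. All 10 genes were found, among 5189 genes present on both platforms, with 1 spot each per array. The samples were cultures of Saccharomyces cerevisiae strain S288C, a laboratory strain, grown in rich YPD medium at 30 °C to an absorbance of 1.0. An aliquot was kept for 1 week at -80 °C without cryoprotectant, thawed for 25 min at 30 °C, and sampled 15, 30 or 60 min later, with 3 arrays per time point that the series describes as independent biological samples. On every array the recovering cells carried Cy5, and an aliquot of unfrozen culture, taken before freezing, carried Cy3 as the control.

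Cdc28 is the single cyclin-dependent kinase that drives the budding yeast cell cycle, and its cyclin partner decides when and on what it acts. Cln3 acts first, in G1, and helps to free the transcription factors SBF and MBF from the repressor Whi5. SBF and MBF then switch on CLN1 and CLN2, which promote budding, and CLB5 and CLB6, which start DNA replication. Clb3 and Clb4 act in S phase and spindle assembly, and Clb1 and Clb2 drive mitosis. Sic1 holds Clb-Cdc28 complexes inactive until Cln-Cdc28 marks it for destruction, and it returns as cells leave mitosis. Most of these transcripts rise and fall with the cell cycle, and cells in exponential growth are a mixture of all phases.

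Each value is a log2 ratio, read as recovering cells over cells before freezing. The labels make that direction likely by naming the recovering sample first, but the tables do not state it, and every sign would turn in the other case. The correlations between the 36 pairs of arrays, across genes, lay between 0.086 and 0.70, all above 0. This is read as 1 shared direction of the arrays, though a dye effect common to them would also give correlations above 0. Of 90 possible values for the 10 genes, 70 were present (77.8%, against 77.3% for all genes on both platforms). The array of 15 min replicate 1 held values for 4 of the 10 genes and for 50.2% of all genes. The other arrays held 5 to 10 of the 10 genes. CLB3 and SIC1 were measured on all 9 arrays, CLN3, CLB1 and CLB2 on 8, CLB5 on 7, CLN1, CLN2 and CLB4 on 6, and CLB6 on 3. A gene was tested at a time point in limma when all 3 of its arrays had a value, and it passed at an adjusted p under 0.05 over all genes tested. Why a spot had no value is not recorded in the tables, and the number of arrays limits the precision of each mean.

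**Figure D1:**
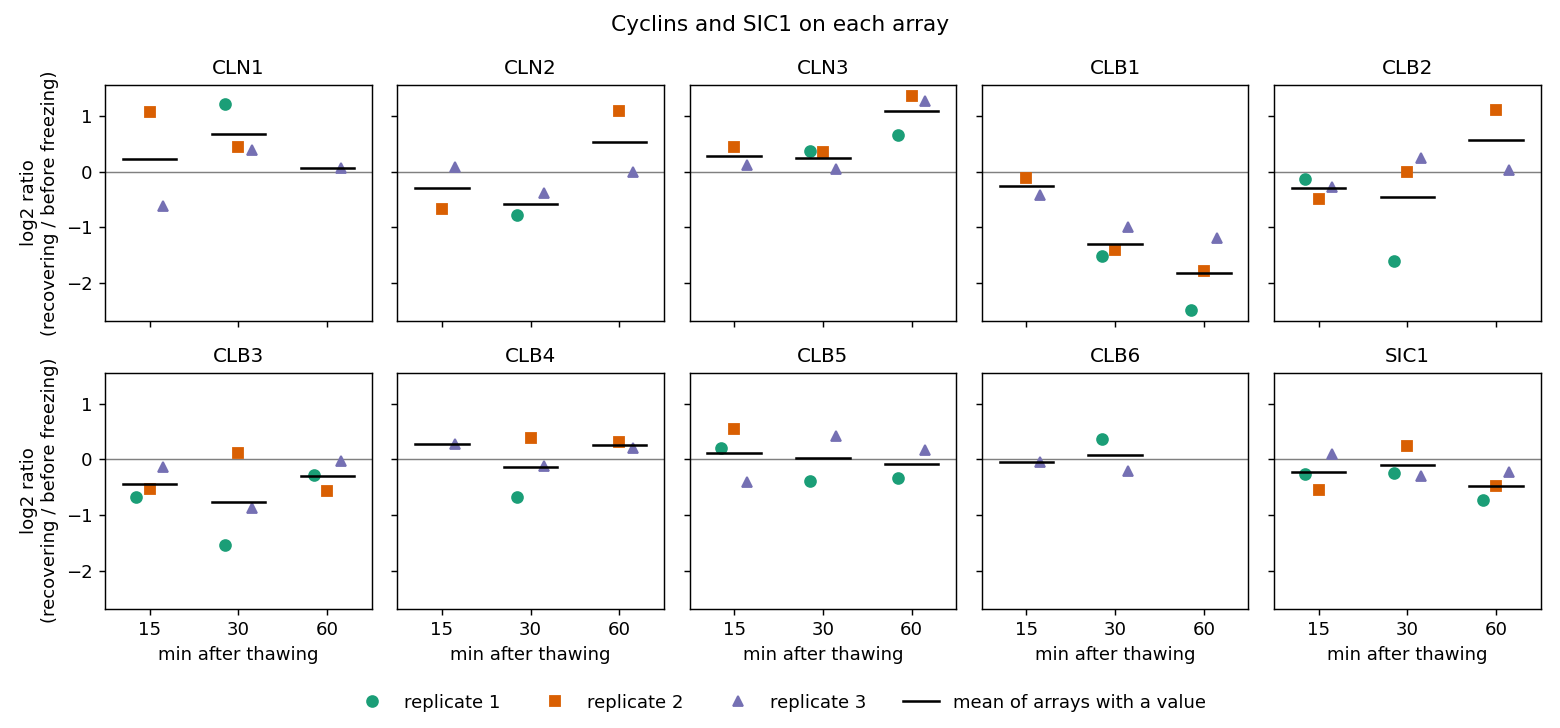
Log2 ratio of each cyclin gene and of SIC1 (vertical axis) on each array by time after thawing (horizontal axis). Symbols are replicates and the black line is the mean of the arrays with a value. CLB1 lies below 0 on all 8 of its arrays and CLN3 above 0 on all 8 of its arrays.

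CLB1 and CLN3 were the members that passed. CLB1, a mitotic cyclin gene, was 2.47-fold lower than before freezing at 30 min and 3.53-fold lower at 60 min. CLN3, the most upstream G1 cyclin gene, was 2.13-fold higher at 60 min. At 15 min 0 of the 4 genes tested passed in limma, where 1.16% of all 2148 genes tested did, and before adjustment the number with a p under 0.05 was also 0. At 30 min 1 of 7 passed, against a background of 4.34% (2.29% higher and 2.05% lower). At 60 min 2 of 4 passed, against a background of 33.2% (15.6% higher and 17.5% lower), and with so few genes tested this share is not read as different from the background. The median mean log2 ratio of the genes tested was -0.27 at 15 min, -0.14 at 30 min and -0.38 at 60 min, beside -0.053, -0.080 and -0.056 over all genes tested at those times.

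CLN3 encodes the cyclin that links cell growth to the start of a new cycle. Its log2 ratios were 0.65, 1.36 and 1.26 in replicates 1, 2 and 3 at 60 min. All 3 lay above 0. CLN3 values at the earlier times ran from 0.043 to 0.45. The mean at 60 min was 1.09 ± 0.28 (log2 mean ± SE from limma, SD of the arrays 0.38, n = 3, adjusted p = 0.00406). In a culture of mixed phases, more cells in a phase with high CLN3 and more CLN3 RNA per cell cannot be told apart, and the same holds for each transcript below. At 30 min CLN3 stood at 0.36, 0.34 and 0.043, all above 0 but close to it (mean 0.25 ± 0.28, n = 3, adjusted p = 0.691). At 15 min it stood at 0.45 and 0.12 in replicates 2 and 3 and had no value in replicate 1. Within each array CLN3 ranked between percentiles 56.7 and 72.3 of all genes at 15 and 30 min, and at percentiles 76.9, 89.5 and 97.7 at 60 min.

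The rise of CLN3 at 60 min was seen on both array platforms. It was at 0.65 on the 1 array of the first platform, and its mean was 1.31 ± 0.32 on the 2 arrays of the second (adjusted p = 0.0142 in limma). With platform as a block, which leaves the mean unchanged and alters only its error, the adjusted p was 0.00524. Without replicate 2 the mean was 0.95 and the adjusted p 0.0502. Set against 30 min directly, CLN3 at 60 min was higher by 0.84 ± 0.39 (95% interval 0.037 to 1.64, unadjusted p = 0.0409, adjusted p = 0.433 in limma), which did not pass.

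CLN1 and CLN2, the paralogous G1 cyclin genes that SBF switches on, did not show a change that passed. CLN1 was at 1.20, 0.45 and 0.38 at 30 min, above 0 on all 3 arrays (mean 0.68 ± 0.32, 95% interval 0.020 to 1.33, n = 3, adjusted p = 0.256 in limma). Without replicate 1 that mean was 0.41. At 15 min its replicates 2 and 3 lay far apart, at 1.07 and -0.62. At 60 min it had 1 value, 0.055 in replicate 3.

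CLN2 had no time point with 3 values. It was at -0.67 and 0.085 in replicates 2 and 3 at 15 min, at -0.78 and -0.38 in replicates 1 and 3 at 30 min, and at 1.08 and -0.0039 in replicates 2 and 3 at 60 min. The arrays of a time point thus disagreed in sign at 15 and 60 min. Allowing genes with 2 of 3 arrays, the mean of CLN2 was -0.58 ± 0.37 at 30 min and 0.54 ± 0.37 at 60 min (adjusted p = 0.440 and 0.297 in limma). On the 5 arrays that measured both paralogs, CLN1 was the higher ratio on 4, by a median of 0.76, with differences from -0.70 to 1.98.

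CLB5 and CLB6, the S-phase cyclin genes, showed no common direction on the arrays that measured them. CLB5 was at 0.20, 0.55 and -0.40 at 15 min, on both sides of 0 (mean 0.12 ± 0.29, 95% interval -0.48 to 0.72, n = 3, adjusted p = 0.877 in limma). It was at -0.38 and 0.43 in replicates 1 and 3 at 30 min, and at -0.34 and 0.17 in the same replicates at 60 min. CLB6 was at -0.048 in replicate 3 at 15 min and at 0.37 and -0.21 in replicates 1 and 3 at 30 min, with no value at 60 min. The intervals leave room for changes in either direction, so an equal level was not shown.

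CLB3, a cyclin gene of S phase and spindle formation, lay below 0 on 8 of 9 arrays without passing at any time. It was at -0.67, -0.52 and -0.13 at 15 min (mean -0.44 ± 0.30, n = 3, adjusted p = 0.472 in limma). At 30 min it was at -1.54, 0.12 and -0.88, so that replicate 2 lay above 0 and the others well below. The mean there was -0.77 ± 0.30 (SD of the arrays 0.83, n = 3, 95% interval -1.38 to -0.16, unadjusted p = 0.0157, adjusted p = 0.142 in limma), and it was -0.38 without replicate 1 and -1.21 without replicate 2. At 60 min it was at -0.28, -0.57 and -0.024 (mean -0.29 ± 0.30, adjusted p = 0.476).

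CLB4, the paralog of CLB3, was measured on 6 arrays and showed no common direction. It was at 0.27 in replicate 3 at 15 min, at -0.67, 0.38 and -0.11 at 30 min, and at 0.32 and 0.20 in replicates 2 and 3 at 60 min. Its mean at 30 min was -0.14 ± 0.29 (n = 3, adjusted p = 0.865 in limma). CLB3 was the lower of the pair on all 6 arrays that held both, with differences of -0.89 to -0.22. No test was made of that difference.

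CLB1 had the lowest ratios of the 10 genes at 60 min. Its log2 ratios were -2.48, -1.78 and -1.19 in replicates 1, 2 and 3, and on each of these arrays it ranked within the lowest 5.09% of all genes. The mean was -1.82 ± 0.29 (SD of the arrays 0.64, n = 3, adjusted p = 4.82e-05 in limma). At 30 min CLB1 stood at -1.52, -1.41 and -0.99, between percentiles 0.593 and 3.41 of its arrays. The mean there was -1.31 ± 0.29 (SD 0.28, n = 3, adjusted p = 0.00708). At 15 min it stood at -0.12 and -0.42 in replicates 2 and 3, so that all 8 of its values lay below 0.

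The fall of CLB1 at 60 min passed on the second platform alone (-1.49 ± 0.33, n = 2, adjusted p = 0.00844 in limma) and without any 1 replicate (-2.13 to -1.49). It also passed with platform as a block (adjusted p = 0.000318). The block leaves the mean unchanged and alters only its error, so it cannot show that a mean is free of platform. At 30 min the call depended on replicates 1 and 2. On the second platform alone it was -1.20 ± 0.33 (n = 2, adjusted p = 0.108). Without replicate 1 it was -1.20 (adjusted p = 0.131) and without replicate 2 it was -1.25 (adjusted p = 0.139), while it passed without replicate 3 (adjusted p = 0.0213) and with platform as a block (adjusted p = 0.0113).

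Between times of recovery, CLB1 was lower at 60 min than at 30 min by 0.51 ± 0.41 (log2 difference -0.51, 95% interval -1.35 to 0.33, adjusted p = 0.654 in limma), which did not pass. Against 15 min, where CLB1 had 2 values, the difference was -1.55 ± 0.46 (95% interval -2.49 to -0.61, unadjusted p = 0.00215, adjusted p = 0.0658 in limma) when genes with 2 of 3 arrays were admitted. Hence the mean log2 ratio of CLB1 differed from 0 at 30 and 60 min, while a difference between times was not shown by the adjusted test.

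**Figure D2:**
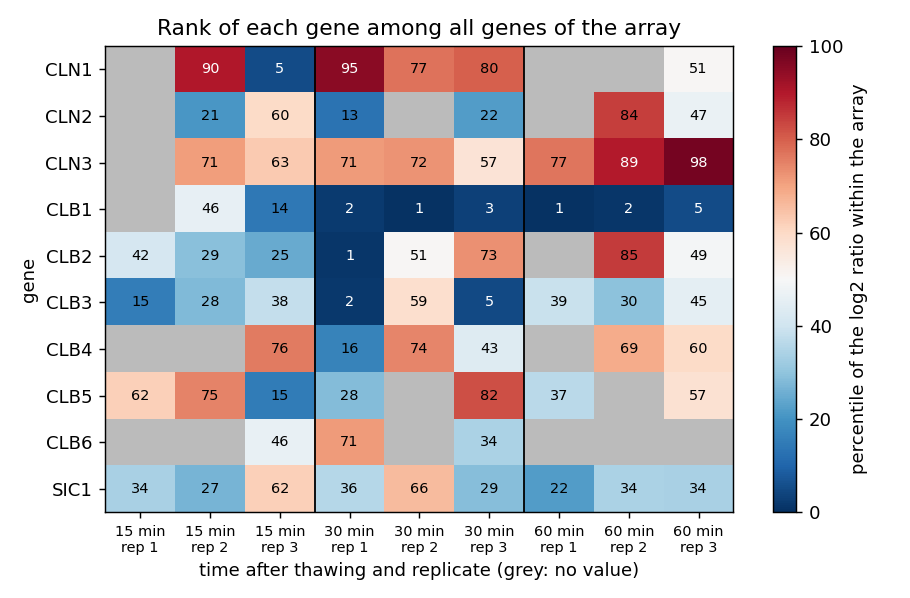
Rank of each cyclin gene and of SIC1 among all genes of the same array, as a percentile of the log2 ratio (colour and number), by array (columns, time and replicate). Grey cells hold no value. CLB1 is within the lowest 5.09% on all 6 arrays of 30 and 60 min, and CLN3 is at percentile 76.9 or above on the 3 arrays of 60 min.

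CLB2, the paralog of CLB1 and the main mitotic cyclin gene, did not show the low ratios of CLB1 on most arrays. At 15 min it was at -0.13, -0.50 and -0.28, all below 0 (mean -0.30 ± 0.32, n = 3, adjusted p = 0.674 in limma). At 30 min replicate 1 was at -1.60, near the value of CLB1 on that array, while replicates 2 and 3 were at -0.0018 and 0.25 (mean -0.45 ± 0.32, SD 1.004, n = 3, adjusted p = 0.485). Without replicate 1 that mean was 0.12. At 60 min replicates 2 and 3 were at 1.11 and 0.030 and replicate 1 had no value, so CLB2 was not tested there with 3 arrays. With 2 arrays the mean was 0.57 ± 0.39 (adjusted p = 0.304).

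On the 7 arrays that measured both mitotic paralogs, CLB1 was lower than CLB2 on 5, and the difference ran from -2.89 to 0.38 with a median of -1.22. The lowest difference was that of replicate 2 at 60 min, where CLB1 was at -1.78 and CLB2 at 1.11. The 5 arrays with CLB1 lower were all of the second platform. On the 1 array of the first platform that held both, replicate 1 at 30 min, CLB1 was at -1.52 and CLB2 at -1.60. Whether the platforms differ in this pair was not tested. Paralogs with similar sequence can share signal on a spotted array. The probe sequences were not used here, and how far each spot reports its own gene was not tested.

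CLB1 and CLB6 are neighbours on chromosome VII, and CLB2 and CLB5 on chromosome XVI, in the RefSeq annotation of assembly R64. CLB1 was lower than its neighbour CLB6 on all 3 arrays that held both, with differences of -1.88 to -0.37, and no test was made of it. CLB2 and CLB5 differed by -1.22 to 0.13 on 6 arrays.

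SIC1, the inhibitor of the Clb-Cdc28 kinases, was measured on every array and did not pass at any time. It was at -0.27, -0.54 and 0.11 at 15 min and at -0.23, 0.23 and -0.29 at 30 min, on both sides of 0 each time. At 60 min it was at -0.73, -0.48 and -0.22, below 0 on all 3 arrays (mean -0.48 ± 0.27, 95% interval -1.04 to 0.085, n = 3, adjusted p = 0.184 in limma). The means at 15 and 30 min were -0.23 ± 0.27 and -0.096 ± 0.27 (adjusted p = 0.715 and 0.900). Its rank within the arrays stayed between percentiles 22.1 and 65.9.

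**Figure D3:**
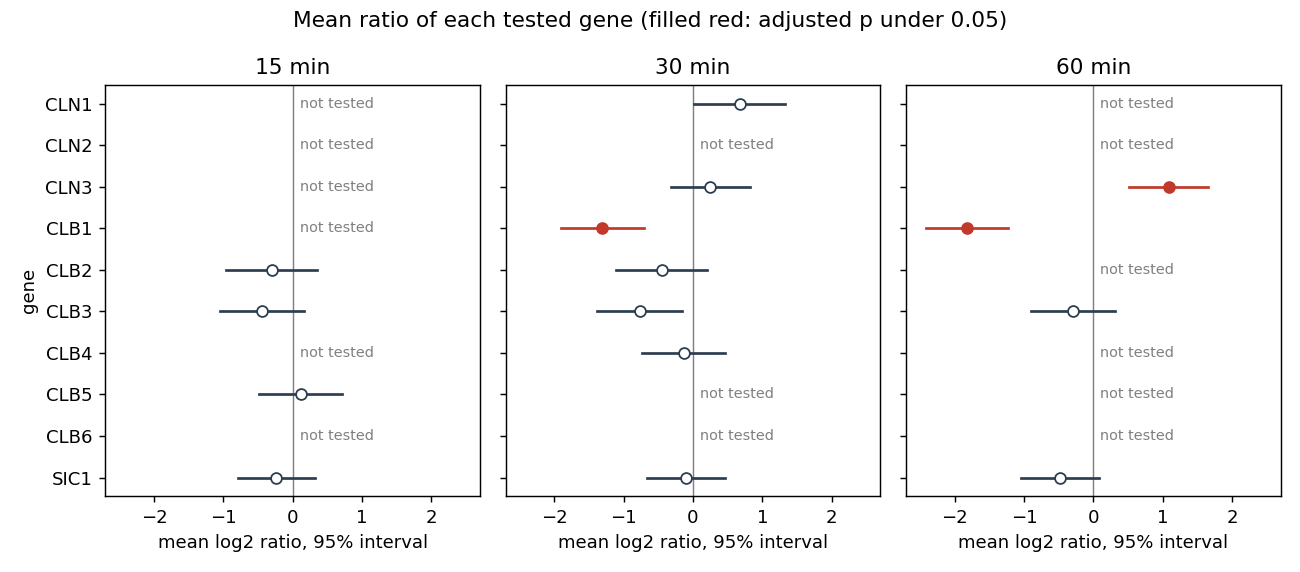
Mean log2 ratio of recovering cells over cells before freezing at each time point, with the 95% interval from limma (n = 3 arrays), for the genes with 3 values. Filled red points passed at an adjusted p under 0.05, and the text in grey marks genes with fewer than 3 values. The points that passed are CLB1 at 30 min (-1.31) and 60 min (-1.82) and CLN3 at 60 min (1.09).

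In the comparisons between time points, 0 of the 10 genes passed in limma. Between 60 and 15 min 2 genes were tested, against a background of 5.77% of 1871 genes called, and before adjustment 0 of them had a p under 0.05. Between 60 and 30 min 4 were tested, against a background of 0.0407% of 2457 genes, and CLN3 had the 1 unadjusted p under 0.05. Between 30 and 15 min 3 were tested, against a background of 0% of 1853 genes, and before adjustment 0 had a p under 0.05. Same-numbered arrays of 30 and 60 min deviated together, and with the replicate number as a block the adjusted p for 60 against 30 min was 0.233 for CLN3 and 0.503 for CLB1. The count over all genes in that comparison moved from 1 to 33 with this block. With genes measured on 2 of 3 arrays admitted, 8, 10 and 8 of the 10 genes were tested at 15, 30 and 60 min, and 0, 1 and 2 passed. Over all genes 26 of 3542, 165 of 4559 and 1083 of 4227 passed in this setting. The member share at 60 min is not read as different from that background.

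The other genes of the cell cycle engine were drawn from 10 lists that named 137 further genes on both platforms. Of these, 0 of 37 tested passed at 15 min and 0 of 71 at 30 min in limma, and at 60 min 6 of 53 were higher and 7 lower, beside 15.6% and 17.5% of all genes tested. Their median log2 ratio at 60 min was 0.11. The share that passed at 60 min, 24.5%, was not above the 33.2% of all genes tested.

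Of Cdc28 and its direct regulators, 1 of 5 tested was higher and 1 lower at 60 min in limma, beside 15.6% and 17.5% of all genes tested, so the group is not read as different from the background. CAK1, the kinase that activates Cdc28, was at 1.27, 0.96 and 0.73 (mean 0.99 ± 0.27, n = 3, adjusted p = 0.00685). HSL1, a kinase that counteracts the Cdc28 inhibitor kinase Swe1, was at -2.43, -0.62 and -0.53, so that replicate 1 stood apart (mean -1.19 ± 0.32, n = 3, adjusted p = 0.00679). The other 3 did not pass: CDC28 itself was at 0.67 ± 0.29 (adjusted p = 0.0761), CKS1 at 0.15 ± 0.32 and FAR1 at -0.052 ± 0.31. Before adjustment 3 of the 5, CAK1, HSL1 and CDC28, had a p under 0.05 in limma, beside 43.7% of all genes tested. Without replicate 1, HSL1 was at -0.57 (adjusted p = 0.229) and CAK1 at 0.85 (adjusted p = 0.0704).

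Upstream of the G1 cyclins, 0 of 3 tested genes of SBF, MBF and their partners passed at 60 min in limma, beside 33.2% of all genes tested. Before adjustment 0 of them had a p under 0.05. SWI4 and SWI6, which form SBF, were at 0.057 ± 0.31 and -0.45 ± 0.31. Among 11 tested targets of SBF and MBF, 2 were higher and 3 lower (median -0.37), beside 15.6% and 17.5% of all genes tested. Before adjustment 8 of the 11 had a p under 0.05 in limma, beside 43.7% of all genes tested. With so few genes these shares are not read as different from the background. RFA1, a subunit of the single-stranded DNA binding protein, rose by 0.98 ± 0.30 and OCH1, a mannosyltransferase of the Golgi, by 0.88 ± 0.30. The lower ones were RAD27 (-0.92 ± 0.28), a flap endonuclease of DNA replication, TOS4 (-0.84 ± 0.29), and ASF1 (-0.84 ± 0.28), a histone chaperone. The adjusted p of these genes in limma lay between 0.0127 and 0.0272. All 5 lost the call without at least 1 replicate, at an adjusted p of up to 0.0910 without replicate 1 (RAD27), 0.223 without replicate 1 (TOS4), 0.317 without replicate 2 (OCH1), 0.198 without replicate 2 (RFA1) and 0.180 without replicate 3 (ASF1). In that list CLN1, CLN2, CLB5 and CLB6 would belong as well, but none of them had the 3 values needed for the test at 60 min.

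Genes of the mitotic transcription programme that CLB1 and CLB2 share were mostly not measured on all arrays of 60 min, where 4 of 17 were tested. NDD1, the coactivator of that programme, was at -1.28, -0.23 and -0.82 (mean -0.78 ± 0.29, n = 3, adjusted p = 0.0398 in limma). It was the 1 gene lower, beside 17.5% of all genes tested. The other 3 did not pass. HOF1, a protein of cytokinesis, was at -0.73 ± 0.29 (adjusted p = 0.0539), SPO12, a regulator of mitotic exit, at 0.76 ± 0.32 (adjusted p = 0.0695), and MCM1, the DNA-binding partner, at 0.24 ± 0.31 (adjusted p = 0.574). Before adjustment 3 of the 4 tested, NDD1, HOF1 and SPO12, had a p under 0.05 in limma, beside 43.7% of all genes tested. NDD1 passed in 5 of 10 other settings and lost the call without replicate 1 (adjusted p = 0.283) or replicate 3 (adjusted p = 0.119).

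Genes that peak as cells leave mitosis, as SIC1 does, had 2 of 7 tested higher and 0 lower at 60 min in limma (median 0.54), beside 15.6% of all genes tested that were higher. ASH1, a repressor in daughter cells, was at 0.65, 1.72 and 0.84 (mean 1.07 ± 0.29, n = 3, adjusted p = 0.00617), and DSE3, a daughter cell-specific gene, at 0.19, 1.27 and 1.09 (mean 0.85 ± 0.30, n = 3, adjusted p = 0.0318). The other 5 were DSE1, DSE2, SCW11 and CTS1, which act in the separation of daughter cells, at 0.51 ± 0.34, 0.11 ± 0.29, 0.54 ± 0.32 and 0.62 ± 0.36, and RME1, a repressor of meiosis, at 0.017 ± 0.29. These did not pass (adjusted p = 0.183 to 0.969). DSE3 was also higher at 60 than at 15 min, by 1.41 ± 0.43 (adjusted p = 0.0486, and 0.107 to 0.338 without any 1 replicate), a call kept in 3 of 10 other settings. At 60 min, without replicate 2 ASH1 was at 0.75 (adjusted p = 0.131) and DSE3 at 0.64 (adjusted p = 0.239), and without replicate 3 DSE3 was at 0.73 (adjusted p = 0.150).

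The proteolysis that removes cyclins and Sic1 was represented by the ubiquitin ligases SCF and the anaphase promoting complex. In SCF 1 of 4 genes was lower at 60 min in limma, beside 17.5% of all genes tested. This was CDC34, the ubiquitin-conjugating enzyme that targets Sic1, at -0.80, -0.86 and -1.39 (mean -1.02 ± 0.30, n = 3, adjusted p = 0.0119, and 0.0983 without replicate 3). The others tested did not pass: SKP1 was at 0.50 ± 0.31, HRT1 at -0.12 ± 0.32 and RUB1 at -0.50 ± 0.29. In the anaphase promoting complex 0 of 3 passed in limma, beside 33.2% of all genes tested. Before adjustment 0 of them had a p under 0.05, with means of 0.32 to 0.43. Of 5 tested genes of mitotic exit and checkpoints 1 was higher in limma, beside 15.6% of all genes tested. This was MAD2, of the spindle checkpoint, at 1.44, 1.65 and 0.55 (mean 1.21 ± 0.29, n = 3, adjusted p = 0.00231), which passed also without any 1 replicate.

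Of the other lists, 0 of 6 genes of the kinase Pho85 and its cyclins passed at 60 min in limma, beside 33.2% of all genes tested. Among these 6, 1 had an unadjusted p under 0.05. Of 5 nutrient and stress signalling genes 1 was lower, beside 17.5% of all genes tested. This was RAS1, a GTPase that acts on protein kinase A (-0.94 ± 0.28, n = 3, adjusted p = 0.0124 in limma). The others tested did not pass and all lay above 0, and the median of the list was 0.44. They were HOG1 at 0.62 ± 0.30, YAK1 at 0.56 ± 0.32, TPK2 at 0.44 ± 0.34 and BCY1 at 0.041 ± 0.31. RAS1 lost the call without replicate 2 (adjusted p = 0.124) or replicate 3 (adjusted p = 0.0578).

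**Figure D4:**
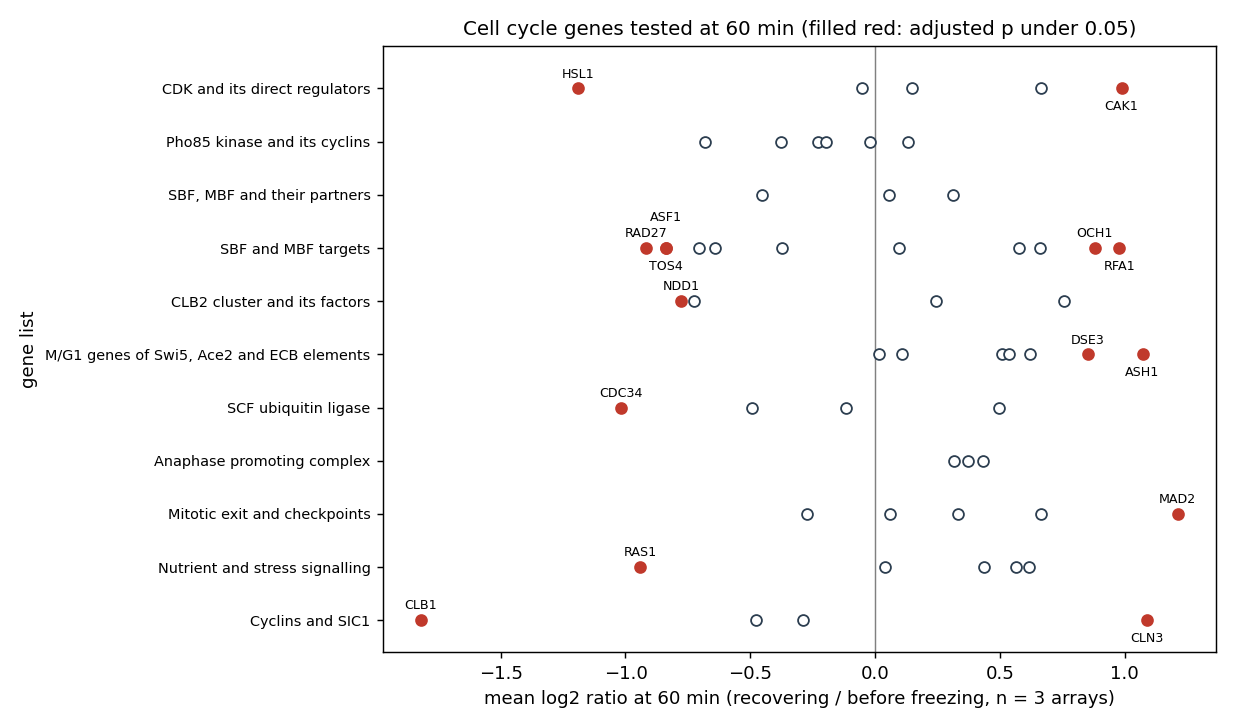
Mean log2 ratio at 60 min (n = 3 arrays) of each tested gene in 10 lists of cell cycle regulators and of the tested cyclins and SIC1 (rows). Filled red points, with names, passed at an adjusted p under 0.05. CLB1 at -1.82 lies below every gene of the 10 lists, and CLN3 at 1.09 lies below MAD2 at 1.21.

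Genes whose ratios ran closest to those of CLB1 and CLN3 were sought among 2089 genes with a value on the same 8 arrays, by the root mean square difference in log2 ratio. CLB1 was closest to CYB5, which encodes cytochrome b5 (0.29), to NUG1, a GTPase of ribosome assembly (0.33), and to NOP19, of the small-subunit processome (0.33). CLN3 was closest to SNF8, of the endosomal sorting machinery (0.30), to FRE6, a putative ferric reductase (0.31), and to CBR1, cytochrome b5 reductase (0.32). These genes were named after their values were seen, and the measure describes 8 arrays that share their time points and depth of signal.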

How the data were processed

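Two-channel arrays of poly(A) RNA were analysed. The deposited values are log2 ratios, normalized by LOWESS within each array by the authors on spots with flag value 0, per the labels. The base is taken as 2 because the lowest value, -6.64, is the log2 of a ratio of 0.01. The labels name no scanner, background correction, flag meaning or genome build. Replicate 1 of each time point is on a first platform and replicates 2 and 3 on a second. Symbols came from the platform annotation, updated by Entrez ID with RefSeq (5185 of 5189 genes matched). Spots of a gene were averaged, and no missing value was imputed.

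One limma fit (version 3.58.1, R 4.3.3) covered the 9 arrays and estimated a mean for each time point, tested two-sided with Benjamini-Hochberg adjustment over all genes tested. Each gene has 1 moderated spread for all times, so its SE differs between times only with the number of arrays that had a value. Where arrays share a control culture, which the labels do not say, the variation of that culture is not part of the error. Errors are SE unless marked SD. The fit was tested on simulated data.

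Same-numbered arrays were compared by their deviations from the time means over 1657 genes. The correlations were 0.47, 0.39 and 0.14 between 30 and 60 min, all over 0.1, but 0.022 to 0.53 between 15 and 60 min and 0.039 to 0.17 between 15 and 30 min, so the numbers were taken as pairs between 30 and 60 min only. The values under 0.1 were those of 15 min replicate 1, while replicates 2 and 3 stood at 0.53 and 0.35 between 15 and 60 min. Arrays of different numbers correlated at -0.61 to 0.30, a range that holds the 0.14 of replicate 3 between 30 and 60 min. The main fit used no pairs, and the replicate block was an alternative to it. All arrays numbered 1 are on the first platform, so number and platform cannot be told apart for them. All 10 members are named, with up to 4 genes per list and time that passed, by size, and other genes of the lists, such as ASF1 and each that did not pass, were added after their values were seen. No member that passed had 9 values, so genes alike to CLB1 and CLN3 were sought over 8 arrays instead. The members and lists were chosen with earlier results of these data known. Alternatives are given in the closing section.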

Additional observations from a re-analysis of the deposited data

Results flagged for a closer look

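CLB2 lay below 0 on all 3 arrays at 15 min (mean -0.30) and above 0 on both arrays with a value at 60 min (mean 0.57), a difference of 0.87 in log2 ratio, and opposite signs in the 2 time points brought it here. With genes measured on 2 of 3 arrays admitted, the 95% interval of the difference was -0.17 to 1.92 (adjusted p = 0.321 in limma), so it did not pass. The value at 60 min rests on replicates 2 and 3, at 1.11 and 0.030.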

How the results depend on the processing

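Of 312 values of the 10 genes under alternatives, 295 kept direction and side of the threshold, 4 lost the call, 1 gained it and 12 changed sign, 0 of them past the threshold. In several settings the estimates of these genes equalled those of the main fit, so direction could not change and only the adjusted p could. These were genes with fewer arrays admitted, only the arrays compared, and the platform and replicate blocks. The same held with the lowest value set to missing and with every spot on its own. The second platform alone and the fit without replicate 1 gave the same estimates, so they are not separate checks of direction. The number of these genes that passed at 30 min was 1, but 2 with array weights (CLB3 joined, at -0.83, adjusted p = 0.00528), 0 on the second platform alone, and 0 to 1 without 1 replicate. At 60 min it was 2, and 1 to 2 without 1 replicate. At 15 min and between times it was 0 in every setting tried. The sign changes were CLB1 between 60 and 30 min with scaled arrays (0.029), CLB2 at 30 min on the second platform (0.12) or without 1 replicate (-0.80 to 0.12), CLB2 between 30 and 15 min with array weights (0.18), on the second platform (0.51) or without 1 replicate (-0.49 to 0.51), CLB4 at 30 min on the second platform (0.13) or without 1 replicate (-0.39 to 0.13), CLB5 at 15 min with scaled arrays (-0.0049) or without 1 replicate (-0.099 to 0.38), and SIC1 between 30 and 15 min with array weights (-0.0085) or without 1 replicate (-0.18 to 0.40). The cause was not tested.

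Over all genes, 25 passed at 15 min, and 14 with arrays centred on their median, 62 when also scaled to 1 median absolute deviation, 48 with only the arrays compared, 15 with platform as a block, 161 with the replicate block and 8 to 9 without 1 replicate. At 30 min 144 passed, and 328 scaled, 656 with array weights, 313 with only the arrays compared, 35 on the second platform, 386 with the replicate block and 22 to 88 without 1 replicate. At 60 min 979 passed, and 519 scaled, 556 on the second platform and 586 to 847 without 1 replicate. Between 60 and 15 min 108 passed, and 58 centred, 4 scaled, 63 with array weights, 69 with only the arrays compared, 6 on the second platform, 291 with the replicate block and 5 to 62 without 1 replicate. Between 60 and 30 min 1 passed, and 2 with array weights, 33 with the replicate block, and 0 centred, scaled, with 2 of 3 arrays, with only the arrays compared, with platform as a block, on the second platform, with every spot on its own and without any 1 replicate (0 to 0). The replicate block changed no call of the 10 genes. Centring moved 1 array by over 0.1, 60 min replicate 2, whose median was -0.18.

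Of the other genes named at 60 min, leaving out replicates aside, ASH1, MAD2 and RAS1 passed in 10 of 10 other settings, CAK1, CDC34, HSL1 and RFA1 in 9, DSE3 and RAD27 in 8, ASF1 in 7, OCH1 and TOS4 in 6 and NDD1 in 5. NDD1 lost the call centred (adjusted p = 0.0680), scaled (0.126), with array weights (0.0537), with only the arrays compared (0.0805) and on the second platform (0.283). OCH1 and TOS4 lost it scaled (0.0834 and 0.122), with array weights (0.0768 and 0.0689), with only the arrays compared (0.0600 and 0.0595) and on the second platform (0.0885 and 0.219). DSE3 between 60 and 15 min passed in 3 of 10, with an adjusted p of 0.0603 to 0.142 in the others.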
